A study of Mus musculus with 35 samples.

Results

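Hepatocytes make most of the proteins of blood plasma, so their mRNAs are among the most abundant in liver. The 45 genes described here are hepatocyte genes whose reads were counted in libraries of flow-sorted liver macrophages, and they were taken by name from a list of 45 symbols. All 45 symbols were found among the 54735 symbols of the count files, and all 45 were among the 13421 that passed the filter on low counts (over 1 CPM, a count scaled to the total of its library, in at least 5 samples). *Cyp2b9* passed through the groups fed the Western diet for 24 weeks alone, so its difference between groups follows in part from the filter.

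The 35 libraries came from livers of male C57Bl/6J mice that were put at 5 weeks of age on a standard diet (SD) or on a Western diet (WD), which adds fat and cholesterol to the food and sucrose and fructose to the drinking water. Resident Kupffer cells (ResKCs, sorted as CLEC4F+TIM4+) were taken after 12 weeks of SD (7 samples) or WD (5 samples) and after 24 weeks of SD (6 samples) or WD (6 samples). From livers after 24 weeks of WD, monocyte-derived Kupffer cells (moKCs, CLEC4F+TIM4-, 5 samples) and macrophages without CLEC4F (CLEC4F- macs, 6 samples) were sorted as well. For the 5 samples of WD at 12 weeks the diet field of the labels reads standard diet while their titles and descriptions read western diet, and the titles were followed. Livers were digested with collagenase and most hepatocytes spun down and set aside before the sort, per the methods. The labels do not say which samples came from separate animals or which populations shared an animal, so the p-values measure the spread between these samples.

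Totals ran from 11568590 to 15163845 counts per sample, and 3 counts corresponded to 0.193 to 0.263 CPM. Sample names inside the files follow 2 naming schemes, whose meaning is not given, and 22 samples carry the first and 13 the second. The SD samples at 12 weeks have 3 of the first and 4 of the second, the WD samples at 12 weeks and the SD samples at 24 weeks have the first alone, and the other groups have both. SD replicate 7 at 12 weeks had the highest summed level of the members among the 35 samples (8338 CPM). WD replicate 3 at 12 weeks came close to it (8309 CPM). Dixon's test did not flag the sum of SD replicate 7 within its group. Results that rest on this replicate are given with and without it. Macrophage markers summed to 7127 to 22770 CPM in every library and Kupffer cell markers to 19098 to 35548 CPM in the KC groups and 1813 to 13232 CPM in CLEC4F- macs, so macrophage markers were present in each library and CLEC4F- macs lay below each KC library in Kupffer cell markers.

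Hepatocytes secrete albumin, apolipoproteins, clotting factors and protease inhibitors, and they hold the urea cycle and the cytochrome P450 enzymes. Along the liver lobule these tasks are divided, with the urea cycle nearer the portal vein and most cytochromes P450 nearer the central vein. The major urinary proteins (MUPs), small carriers of pheromones secreted by male mouse liver, and several cytochromes P450 follow the pulses of growth hormone that differ between the sexes. Macrophages take up cell debris, and a sort can carry hepatocyte fragments or free RNA along. In bulk RNA, fewer hepatocyte-bearing particles and less RNA in each cannot be told apart.

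Many of the genes on which the results turn lie in 2 clusters of near copies, and which reads belong to which copy depends on the bases that differ, so these are shown first. *Serpina1a* to *Serpina1e* lie side by side on chromosome 12 and encode the mouse forms of alpha-1-antitrypsin, the plasma inhibitor of neutrophil elastase. Their coding sequences of 1242 bases were 96.3% to 98.47% identical in pairs. The stretch below is coding bases 1099 to 1173, which lies in exonic coding sequence and encodes the region of the reactive loop, the bait that decides which protease is inhibited. It spans 75 bases, the length of 1 read, and was taken from the GENCODE M21 transcripts (GRCm38, minus strand). Capitals mark the 19 positions at which the 5 genes differ.
Serpina1a (chr12:103853744-103853818): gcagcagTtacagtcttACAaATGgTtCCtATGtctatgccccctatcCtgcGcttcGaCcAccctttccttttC
Serpina1b (chr12:103728311-103728385): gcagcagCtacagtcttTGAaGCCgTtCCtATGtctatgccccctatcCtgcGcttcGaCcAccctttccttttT
Serpina1c (chr12:103895081-103895155): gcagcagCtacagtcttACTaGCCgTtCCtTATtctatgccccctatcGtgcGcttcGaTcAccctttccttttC
Serpina1d (chr12:103763749-103763823): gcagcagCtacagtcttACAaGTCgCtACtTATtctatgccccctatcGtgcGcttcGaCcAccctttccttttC
Serpina1e (chr12:103947087-103947161): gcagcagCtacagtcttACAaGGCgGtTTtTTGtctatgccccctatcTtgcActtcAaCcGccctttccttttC
Each of these 5 stretches was found in no transcript of another symbol, so a read across it belongs to 1 gene. Over whole transcripts, the share of 75-base words found in no other symbol was 30.4% for *Serpina1a*, 74.9% for *Serpina1b*, 33.9% for *Serpina1c*, 62.9% for *Serpina1d* and 79.7% for *Serpina1e*.

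The 7 MUP members lie on chromosome 4. Coding sequences of *Mup9*, *Mup16* and *Mup17* were 98.9% to 99.63% identical, whereas *Mup20* and *Mup21* shared 87.55% of bases. In the stretch of coding sequence below, read from the same transcripts on the minus strand, capitals mark the 24 positions that differ among the 7 members.
Mup3 (chr4:62086856-62086930): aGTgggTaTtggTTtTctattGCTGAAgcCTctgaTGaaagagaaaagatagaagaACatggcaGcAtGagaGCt
Mup21 (chr4:62150251-62150325): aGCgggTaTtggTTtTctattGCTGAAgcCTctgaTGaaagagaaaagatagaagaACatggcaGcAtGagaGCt
Mup17 (chr4:61595249-61595323): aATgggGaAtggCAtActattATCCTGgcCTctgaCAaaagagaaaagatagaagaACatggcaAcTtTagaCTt
Mup9 (chr4:60421375-60421449): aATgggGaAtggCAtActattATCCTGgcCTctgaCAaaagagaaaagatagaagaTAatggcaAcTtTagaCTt
The stretches of *Mup3* and *Mup21* were found in 1 symbol each and that of *Mup17* in 2, but that of *Mup9* was identical to that of *Mup18* and occurred in 12 symbols. The share of words of their own was 93.2% for *Mup3*, 89.7% for *Mup21* and 56.4% for *Mup20*, and 31.3%, 15.5%, 12.5% and 11.3% for *Mup17*, *Mup16*, *Mup18* and *Mup9*. How reads that match several genes were counted is not given in the sources used here, so values of these last 4 and of *Serpina1a* and *Serpina1c* are uncertain as to which copy they belong to. Among the other members, *Trf* had 21.4% words of its own (it shares words with the gene model *Gm20425*), *Ass1* 53.1% (copy *Gm5424*) and *Bhmt* slightly fewer than *Ass1* (copies *Bhmt-ps1* and *Gm5096*), while 31 of 45 members had over 90%.

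The promoters of *Serpina1b* and *Serpina1e* are shown because the counts of these neighbouring genes parted in the WD samples at 24 weeks. Each sequence holds the 250 bases before the start that RefSeq gives the gene (GRCm38.p6). Both lie inside the longer span that GENCODE gives the same gene. Capitals mark the letters GTTAAT, the core of sites recognised by the hepatocyte transcription factor HNF1.
Serpina1b (chr12:103738190-103738439, minus strand): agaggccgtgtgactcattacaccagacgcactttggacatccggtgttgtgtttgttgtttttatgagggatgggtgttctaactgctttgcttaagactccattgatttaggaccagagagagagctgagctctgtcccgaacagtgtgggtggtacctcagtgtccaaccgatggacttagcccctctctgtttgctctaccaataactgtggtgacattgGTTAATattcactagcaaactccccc
Serpina1e (chr12:103956898-103957147, minus strand): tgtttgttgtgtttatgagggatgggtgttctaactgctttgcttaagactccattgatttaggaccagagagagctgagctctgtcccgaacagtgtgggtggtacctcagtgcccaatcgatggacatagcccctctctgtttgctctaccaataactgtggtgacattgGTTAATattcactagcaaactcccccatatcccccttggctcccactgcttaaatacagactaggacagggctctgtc
The core lay 26 bases before the RefSeq start in *Serpina1b* and 78 bases before it in *Serpina1e*, inside a run of 69 bases that the sequences share. This run stops where the *Serpina1b* sequence ends. The distances depend on where each start was annotated and do not show a difference between the promoters. Searched on both strands, the core was found in 11 of the 37 members with a promoter sequence (29.73%) and in 1762 of 27025 symbols (6.52%). The 11 were *Alb*, *Fabp1*, *Vtn*, *Fga*, *Fgb*, *Pck1* and the 5 *Serpina1* genes, and a match of letters does not show that a factor binds. The 5 *Serpina1* genes are near copies of each other, so their matches are not independent and raise the share among the members.

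To separate hepatocyte RNA as a whole from single genes, a reference level was set as the summed counts of 23 other hepatocyte genes, such as *Plg* (plasminogen), *Hrg* and *Itih1*. The reference summed to a median of 255 CPM (106 to 1311) in SD and 540 CPM (335 to 1255) in WD samples at 12 weeks, and to 402 CPM (124 to 459) in SD and 670 CPM (408 to 1410) in WD samples at 24 weeks. It reached 656 CPM (617 to 1048) in moKCs and 528 CPM (289 to 1148) in CLEC4F- macs. Hepatocyte RNA was therefore present in all 6 groups, and the SD samples at 12 weeks alone covered most of the range of the 35 samples.

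Summed over the 45 members, levels varied as widely. The WD samples at 24 weeks held 2457, 3230, 7582, 2495, 4894 and 4408 CPM, and the SD samples 1662, 1033, 3257, 3298, 2995 and 3341 CPM. The SD samples at 12 weeks held 1782, 1634, 884, 4337, 3584, 1858 and, in replicate 7, 8338 CPM, and the WD samples 3664, 4683, 8309, 4182 and 2443 CPM. The moKCs held 6666, 5058, 3816, 4090 and 3262 CPM and the CLEC4F- macs 1690, 2067, 6624, 3546, 3704 and 3063 CPM. The ranges of the diets overlapped at both times.

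**Figure D1:**
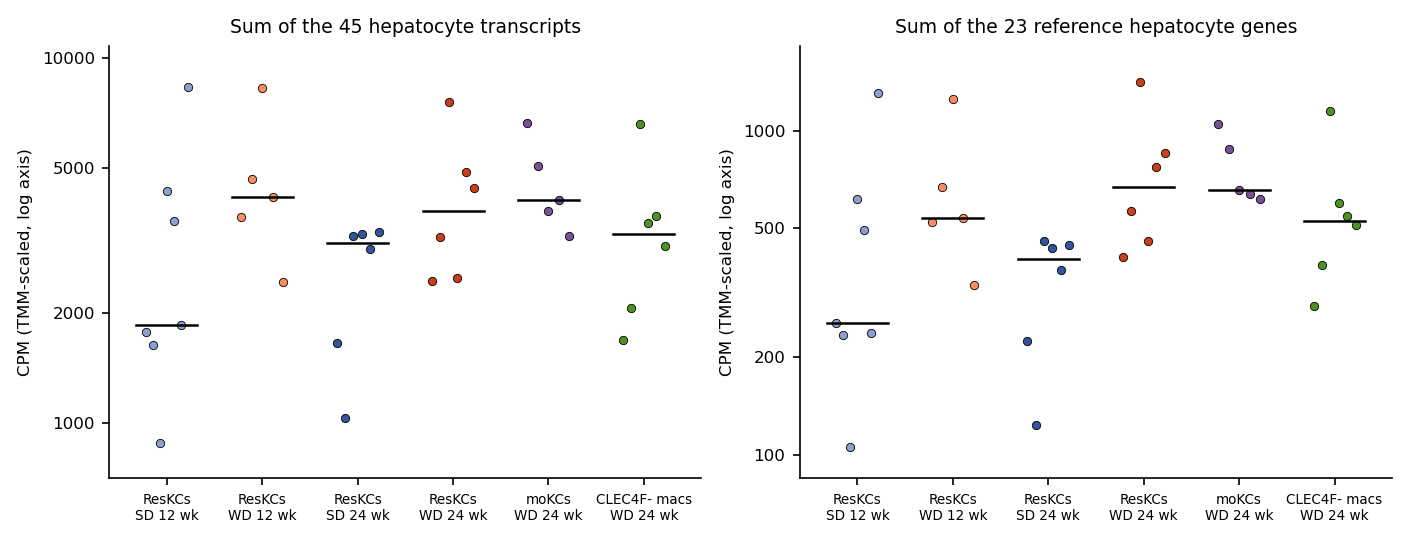
Summed level of the 45 members and of the 23 reference genes in each of the 35 samples (CPM, log axis), by group, with the group median as a bar. SD replicate 7 at 12 weeks is the highest member sum (8338 CPM) and SD replicate 3 at 12 weeks the lowest (884 CPM).

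Per kilobase of exon, the highest mean levels were those of *Apoa2*, an apolipoprotein of high-density lipoprotein (432 CPM per kb), and *Alb*, albumin (234 CPM per kb). *Mup3* (204), *Fabp1*, a fatty acid carrier of the cytosol (186), and *Apoa1* (176) came next on this scale. *Serpina3k* (87.7) and *Ambp* (40.6) led the protease inhibitors, *Fgg* (37.2) and *Fga* (37.1) the coagulation and matrix genes, *Cyp2e1* (69.6) and *Cyp3a11* (19.6) the cytochromes, and *Hpd* (17.9) and *Tat* (9.13) the other enzymes. *Mup16* (1.81), *Mup9* (1.64) and *Cyp2b9* (0.981) were the lowest.

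Most members rose and fell with the reference from sample to sample. Over the 35 samples, Pearson's r between a member's log2 CPM and the reference's was over 0.9 for 23 members, over 0.8 for 32 and under 0.5 for 5, with a median of 0.903. *Apoh*, which encodes beta-2-glycoprotein I, followed the reference most closely (r = 0.985, rho = 0.975, permutation p = 1e-05 for both, the smallest that 100000 resamples give, adjusted p = 1.3e-05 over 45 relations). Without the 2 samples farthest from the reference median its r was 0.977, and within the naming schemes it was 0.986 and 0.979. *Alb* gave r = 0.921 and rho = 0.886 (the same permutation p for both), with r = 0.888 without the 2 samples and 0.940 and 0.833 within the schemes.

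The 5 members with the lowest r over the 35 samples were *Trf*, *Mup3*, *Mup20*, *Mup21* and *Serpina1e*. A difference between groups also lowers this r. Within groups r was 0.857 for *Mup3*, 0.704 for *Mup21*, 0.661 for *Mup20*, 0.596 for *Trf* and 0.317 for *Serpina1e*. It was 0.410 for *Cyp2b9* and 0.484 for *Mup9*, below that of the 3 MUP genes named here. *Trf*, which encodes transferrin, the iron carrier of plasma, lay between 75.1 and 240 CPM in all 35 samples while the reference spanned 106 to 1410 CPM. Its r was 0.395 (permutation p = 0.019, adjusted 0.0204) and its rho 0.378 (permutation p = 0.0262, adjusted 0.0281), with r = 0.477 without the same 2 samples and 0.391 and 0.620 within the schemes. *Mup3* gave r = 0.480 (permutation p = 0.00311, adjusted 0.00341) and rho = 0.389 (permutation p = 0.0215, adjusted 0.0236), with r = 0.366 without the 2 samples and 0.643 and 0.310 within the schemes. *Serpina1e* gave r = -0.196 (permutation p = 0.259, adjusted 0.265) and rho = -0.185 (permutation p = 0.288, adjusted 0.294), with r = -0.167 without the 2 samples and -0.160 and -0.142 within the schemes. For *Mup20* r was 0.320 (permutation p = 0.0621) and rho 0.331 (permutation p = 0.0539), and for *Mup21* r was 0.0604 (permutation p = 0.728) and rho -0.0255 (permutation p = 0.883). These are descriptions of samples that differ in diet, time and population as well as in hepatocyte RNA. The permutations, also those for *Apoh* and *Alb*, moved values over all 35 samples without regard to group. Their p-values therefore treat unlike samples as alike.

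Markers of bile duct cells (cholangiocytes), which can travel with hepatocytes, were low beside the members. The 6 marker genes together lay at 0.710 to 4.14 CPM in SD and 2.30 to 12.6 CPM in WD ResKCs at 24 weeks, and 2 of 6 passed the filter on low counts. Of these 2, *Tm4sf4* rose with WD at 24 weeks as it stood (1.92, adjusted p = 0.0285 by edgeR's quasi-likelihood test). Their part in the member results was not tested.

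The question at 24 weeks was which hepatocyte transcripts in ResKCs differed between WD and SD, first as they stood and then beyond the shared level of hepatocyte RNA. As they stood, 37 of the 45 members had a higher mean with WD, with a median log2 fold change of 0.89 against 0.00 over all genes tested. A member was called where the quasi-likelihood test of edgeR gave a Benjamini-Hochberg adjusted p under 0.05 and the absolute log2 fold change was over 1. By this rule 9 of 45 were called, where 3.35% of all genes tested were called. Of these, 7 rose (background 2.38%) and 2 fell (background 0.976%). *Cyp2b9* is 1 of the 7, and since it passed the filter through the WD groups it had to differ, so its part in this and the following counts is no support.

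In the second fit the log2 reference level of each sample was a covariate, so that a difference is what is left after the slope on hepatocyte RNA. In that fit 9 of 45 were again called (background 2.96%), of which 3 rose (background 1.53%) and 6 fell (background 1.42%). The median over the members was -0.27 and 31 of 45 lay below 0. Without the limit on the fold, 18 members had an adjusted p under 0.05 (background 6.67%). *Serpina1e*, *Mup21*, *Bhmt*, *Cyp2b9* and *F5* were called in both fits.

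**Figure D2:**
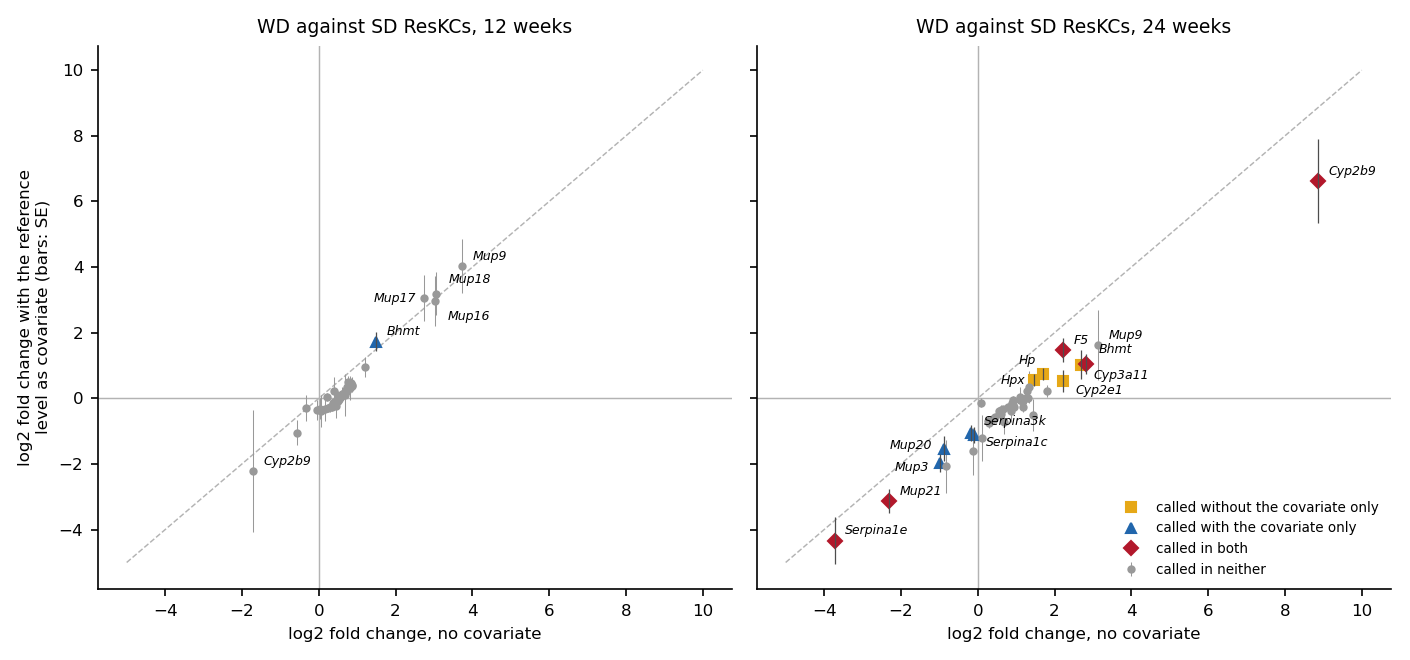
Log2 fold change of WD against SD ResKCs for the 45 members at 12 and 24 weeks, without (x axis) and with the reference covariate (y axis), with vertical bars for the standard error and a dashed line of equality. Symbols show in which fit a member was called, and at 24 weeks *Serpina1e* (-3.72 and -4.34) and *Mup21* (-2.31 and -3.13) lie lowest and *Cyp2b9* (8.87 and 6.63) highest.

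Among the 12 carriers and lipoproteins, all 12 had a higher mean with WD at 24 weeks (median log2 fold change 1.14), and 2 rose by the test. *Hp*, haptoglobin, which binds free haemoglobin, lay at 12.9, 49.7 and 70.0 CPM in SD (lowest, median, highest) and at 77.3, 126 and 222 CPM in WD, with no overlap. Its log2 fold change was 1.71 ± 0.43 (SE, adjusted p = 0.0118). *Hpx*, hemopexin, the plasma carrier of haem, lay at 26.0, 87.3 and 105 CPM in SD and at 122, 194 and 333 CPM in WD, also with no overlap (1.46 ± 0.40, adjusted p = 0.0196, or 1.29 and 0.0532 without WD replicate 6).

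With the covariate, no carrier was called and the median was -0.07. *Hp* then gave 0.74 (adjusted p = 0.0121) and *Hpx* 0.56 (adjusted p = 0.042), both below the fold limit. Per 100 reference counts *Hp* lay at 10.4 to 15.7 in SD and 15.8 to 24.4 in WD, so the groups stayed apart, and *Hpx* at 20.5 to 25.2 and 20.8 to 38.8, which overlap. *Alb* had a log2 fold change of 0.61 ± 0.39 (adjusted p = 0.339) as it stood and -0.34 (adjusted p = 0.153) with the covariate, and *Apoa2* 0.01 with the covariate (adjusted p = 0.108 as it stood). *Trf* gave -0.13 with the covariate.

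The 9 serpins and protease inhibitors held the strongest fall. *Serpina1e* (chr12:103946931-103958975, minus strand, mm10) lay in the SD samples at 15.4, 41.4 and 74.7 CPM and in the WD samples at 0.158, 2.01 and 10.9 CPM. Per 100 reference counts the 6 SD samples held 6.85, 15.2, 16.3, 13.9, 13.3 and 7.47 counts and the 6 WD samples 0.818, 0.175, 0.130, 0.477, 1.42 and 0.0184. The groups did not overlap on either scale, and the lowest SD sample was above the highest WD sample in each. The log2 fold change was -3.72 ± 0.74 (adjusted p = 0.00185) as it stood and -4.34 ± 0.72 (adjusted p = 0.000348) with the covariate, and it was called in 12 of 12 fits without 1 sample in each case.

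Its neighbours did not move alike. *Serpina1b* held 8.40 to 12.9 counts per 100 reference counts in SD and 8.42 to 11.8 in WD and gave -0.13 with the covariate (adjusted p = 0.533). *Serpina1c* held 6.00 to 7.74 in SD and 2.05 to 4.68 in WD and fell with the covariate (-1.12 ± 0.24, adjusted p = 0.00377). That call was kept in 12 of 12 fits without 1 sample but in 7 of 10 other alternative fits. Over all of these the log2 fold change ran from -1.25 to -0.749. *Serpina1a* (-0.75, adjusted p = 0.00558) and *Serpina1d* (-0.63, adjusted p = 0.011) lay below the fold limit, and on the ratio to the reference their WD samples all lay below their SD samples. Taken as 1 row, the *Serpina1* symbols gave 0.10 (adjusted p = 0.913) as they stood and -0.88 ± 0.15 (adjusted p = 0.000522) with the covariate.

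*Serpina3k*, a relative of antichymotrypsin that is abundant in mouse plasma, held 30.9, 48.8 and 52.0 counts per 100 reference counts in SD and 10.4, 19.5 and 29.9 in WD, with no overlap. It fell with the covariate (-1.06 ± 0.24, adjusted p = 0.00554), though its fold slipped under the limit without WD replicate 6 (-0.94). *Ahsg*, fetuin-A, gave -0.47 (adjusted p = 0.00409) with the covariate. Over the 9 genes, none lay above 0 in that fit, and the median was -0.63.

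**Figure D3:**
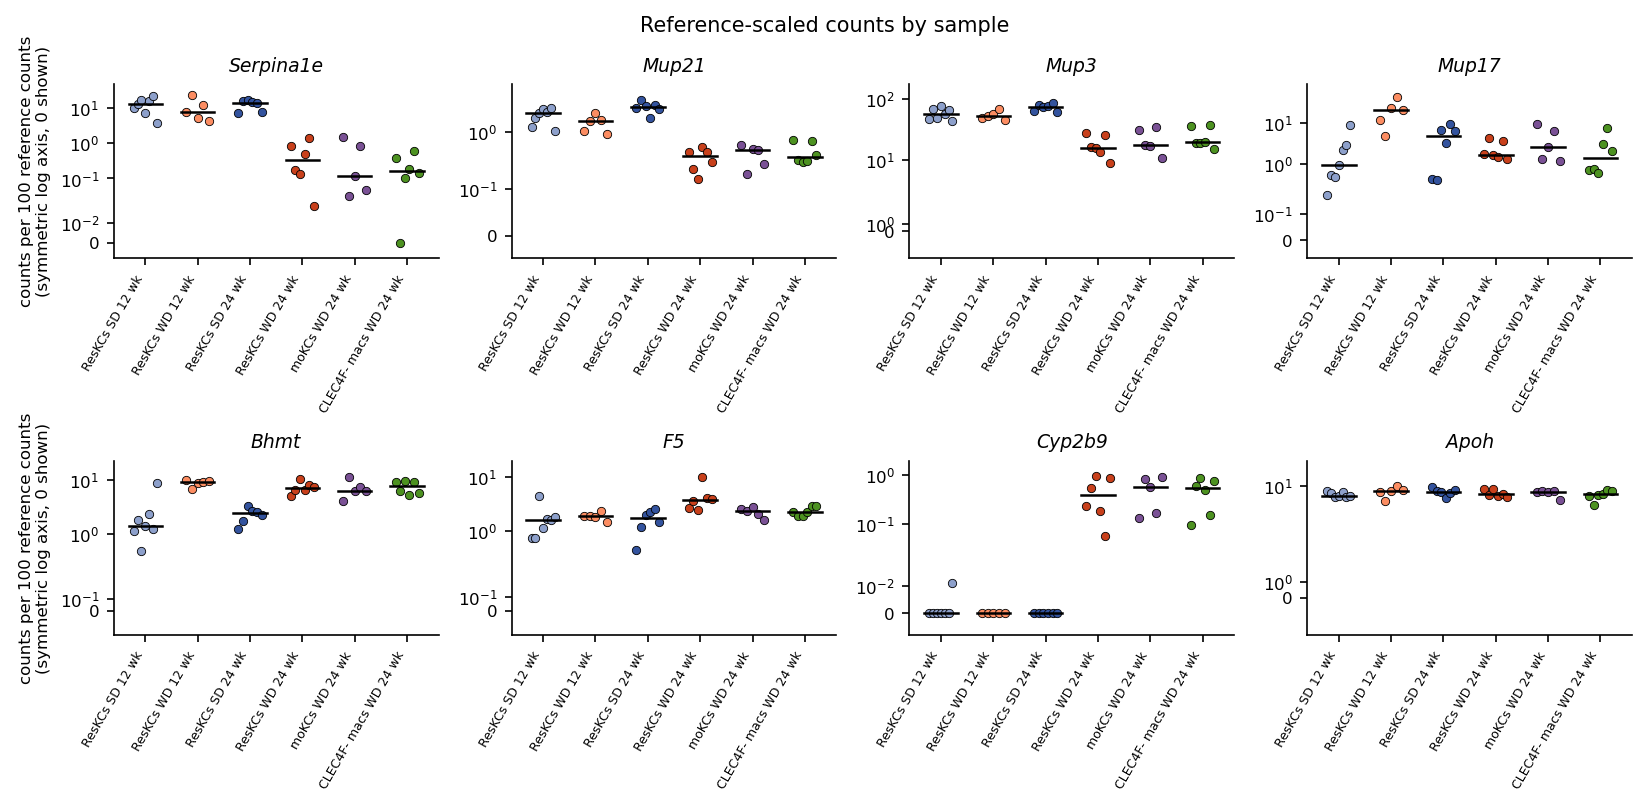
Counts per 100 reference counts (symmetric log axis that shows 0) in each sample, by group, for *Serpina1e*, *Mup21*, *Mup3*, *Mup17*, *Bhmt*, *F5*, *Cyp2b9* and, for comparison, *Apoh*, where points are samples and bars are group medians. *Serpina1e* lies at or below 1.45 in the 3 groups fed WD for 24 weeks and at or above 3.70 in the other 3 groups.

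The 6 coagulation and matrix genes split between *F5* and the rest. *F5* (chr1:164151838-164220277, plus strand), coagulation factor V, the cofactor of factor Xa, held 0.436, 1.70 and 2.55 counts per 100 reference counts in SD and 2.42, 3.72 and 9.66 in WD, which overlap slightly. It rose in both fits (2.23 ± 0.53, adjusted p = 0.0077, and 1.47 ± 0.36, adjusted p = 0.0114 with the covariate), but without WD replicate 4 the covariate fit gave 1.03 (adjusted p = 0.0866), and in samples of the first naming scheme alone it was not called in either fit (1.84, adjusted p = 0.0752, and 0.87, adjusted p = 0.351).

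The 3 fibrinogen chains, which form the clot, stayed close to each other. Per 100 reference counts, *Fga* went from 24.8 to 29.8 in SD to 12.8 to 20.8 in WD, *Fgb* from 21.1 to 32.4 to 12.6 to 17.6, and *Fgg* from 16.4 to 21.5 to 8.92 to 13.2. No pair of groups overlapped, and the covariate fit gave -0.57 (adjusted p = 0.00485), -0.69 (adjusted p = 0.00276) and -0.61 (adjusted p = 0.00213), each below the fold limit. *Vtn*, vitronectin, gave -0.39 (adjusted p = 0.0449).

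The 4 cytochromes P450, enzymes that oxidise drugs, steroids and fatty acids, had 2 members that rose as they stood beside *Cyp2b9*. *Cyp2b9* (chr7:26173411-26210661, plus strand), a female-biased cytochrome of mouse liver, had 0 counts in 6 of 6 SD samples and 13, 40, 173, 11, 5 and 94 counts in the WD samples. The groups did not overlap, and against the floor of 3 counts over the SD group it was at least 116-fold higher. Its fitted log2 fold changes (8.87 and, with the covariate, 6.63) depend on the prior count and are given as descriptions with no test, because of the filter.

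*Cyp2e1*, which oxidises ethanol and acts near the central vein, gave 2.23 ± 0.72 (adjusted p = 0.0493) and lost its call in 9 of 12 fits without 1 sample. *Cyp3a11*, the main drug-metabolising form of the 3A family, gave 2.68 ± 0.75 (adjusted p = 0.0219) and lost it without SD replicate 2 (2.45, adjusted p = 0.0505), SD replicate 4 (2.54, adjusted p = 0.0514) or WD replicate 3 (2.11, adjusted p = 0.0767). With the covariate they gave 0.53 (adjusted p = 0.371) and 1.03 (adjusted p = 0.161). Per 100 reference counts *Cyp2e1* spanned 4.66 to 20.6 in SD and 12.4 to 36.3 in WD, and *Cyp3a11* 2.39 to 12.9 and 7.42 to 26.8, with overlap for both.

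Of the 7 other enzymes, all 7 had a higher mean with WD (median 1.17) and 1 rose. *Bhmt* (chr13:93616675-93637961, minus strand), betaine-homocysteine methyltransferase, which makes methionine from homocysteine, held 1.28, 1.75, 3.38, 2.74, 2.62 and 2.31 counts per 100 reference counts in the SD samples and 5.05, 6.57, 10.7, 6.60, 8.21 and 7.66 in the WD samples. The groups did not overlap. It gave 2.82 ± 0.77 (adjusted p = 0.02, or 2.31 and 0.0638 without WD replicate 3) and, with the covariate, 1.05 ± 0.31 (adjusted p = 0.0365). The covariate value lies near the fold limit and kept its call in 5 of 12 fits without 1 sample. *Hpd*, an enzyme of tyrosine breakdown, gave 1.80 (adjusted p = 0.0566).

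Of the 7 MUP genes 1 fell as they stood and 3 fell with the covariate, while 2 and 1 lay above 0 without passing the test. *Mup21* (chr4:62147932-62150863, minus strand) held 2.96, 4.37, 3.35, 1.88, 3.44 and 2.83 counts per 100 reference counts in the SD samples and 0.409, 0.189, 0.120, 0.510, 0.419 and 0.267 in the WD samples. The groups did not overlap. It fell in both fits (-2.31 ± 0.49, adjusted p = 0.00314, and -3.13 ± 0.38, adjusted p = 6.56e-06), and in 12 of 12 fits without 1 sample.

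*Mup3* (chr4:62083476-62087342, minus strand) held 62.1, 75.1 and 86.1 counts per 100 reference counts in SD and 9.07, 16.0 and 27.4 in WD, again with no overlap. As it stood it gave -0.98 (adjusted p = 0.185), and with the covariate it fell (-1.97 ± 0.27, adjusted p = 3.65e-05). *Mup20*, which encodes darcin, a pheromone of male urine, held 28.8 to 43.0 in SD and 6.46 to 19.2 in WD and fell with the covariate (-1.53 ± 0.38, adjusted p = 0.0146), against -0.89 (adjusted p = 0.216) as it stood. Both kept the covariate call in 12 of 12 fits without 1 sample.

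The 4 MUP members with few words of their own were not called at 24 weeks. With the covariate *Mup9* gave 1.62 (adjusted p = 0.398), *Mup16* -2.07 (adjusted p = 0.124), *Mup17* -1.62 (adjusted p = 0.173) and *Mup18* -1.21 (adjusted p = 0.314). The counts of the 21 MUP symbols in the files, members or not, were also summed into 1 row, which evens out reads moved between copies but would still lack any read left uncounted for matching several genes. That sum held 98.7, 135 and 157 counts per 100 reference counts in SD and 18.3, 33.7 and 52.9 in WD, with no overlap, and gave -0.94 ± 0.47 (adjusted p = 0.208) as it stood and -1.86 ± 0.29 (adjusted p = 0.000137) with the covariate.

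**Figure D4:**
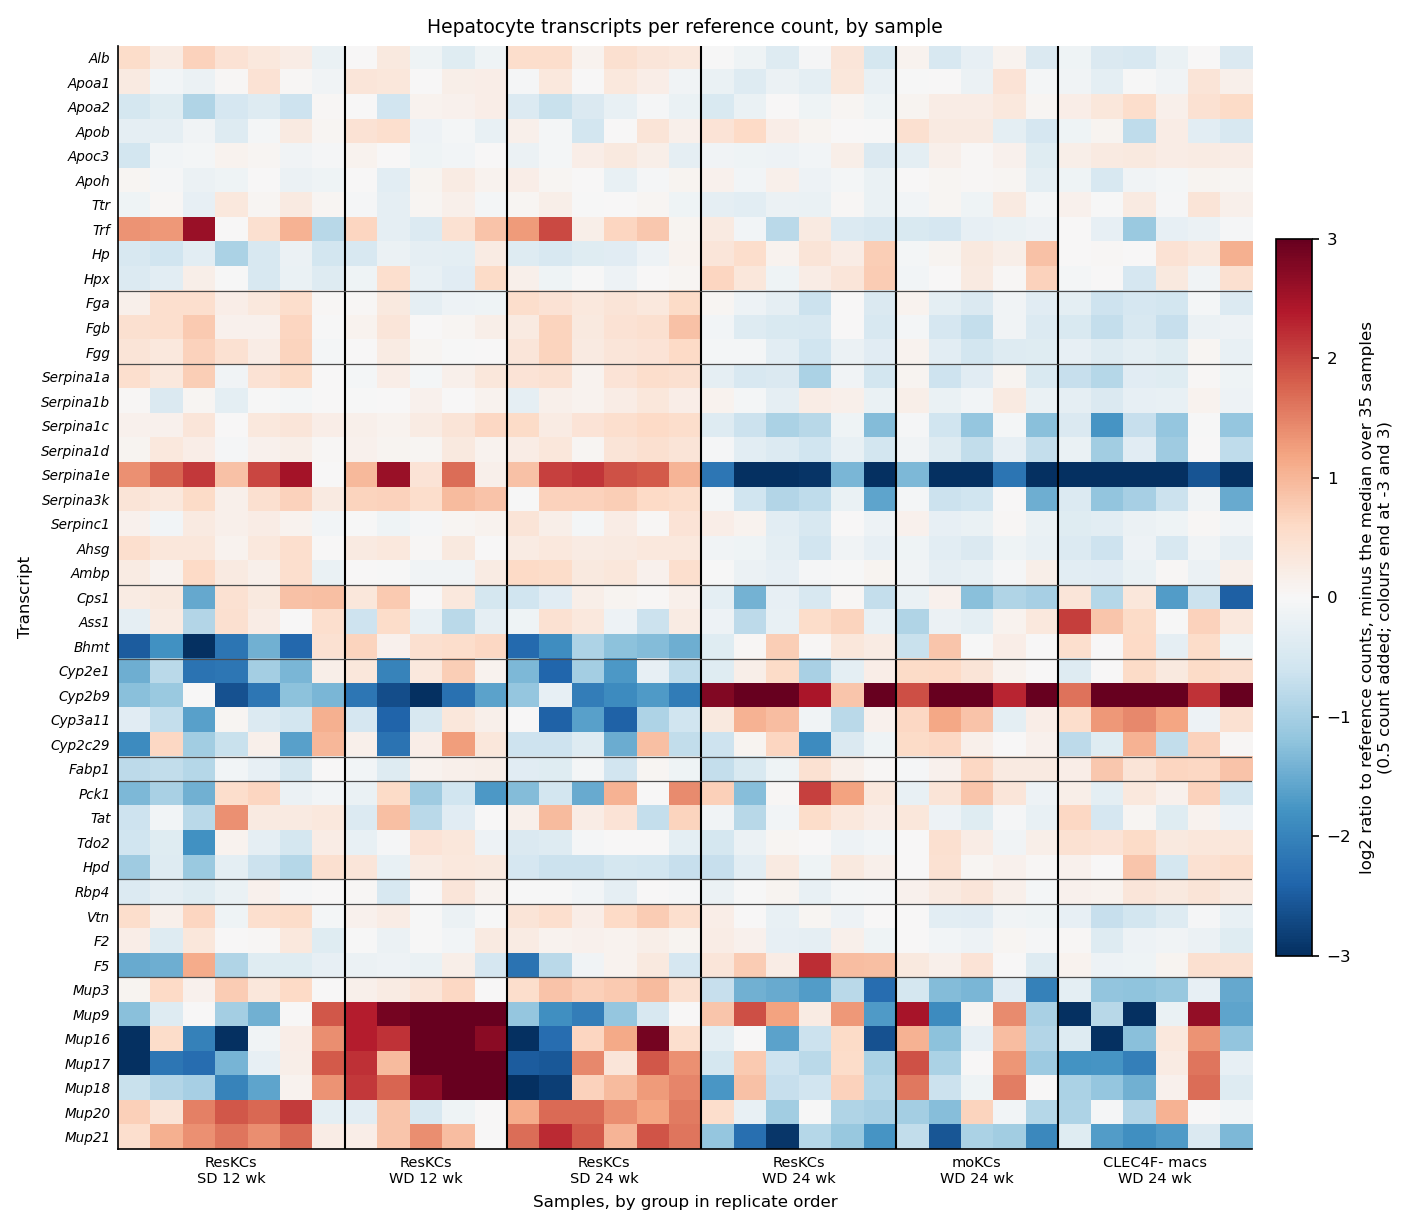
Log2 ratio of each member's counts to the reference counts, with 0.5 count added and minus the member's median over 35 samples, for the 45 members (rows) in the 35 samples (columns, by group). Colours end at -3 and 3. *Serpina1e*, *Mup3* and *Mup21* are low and *Cyp2b9* and *Bhmt* high in the groups fed WD for 24 weeks. *Bhmt* is high in the WD samples and SD replicate 7 at 12 weeks as well.

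Counted by overlap alone, 3 members (*Hp*, *Bhmt*, *Cyp2b9*) had every WD sample at 24 weeks above every SD sample per reference count (background 0.283%), and 14 had every WD sample below (background 8.45%). The reference itself was higher with WD, which by construction lowers the ratio of any gene that did not follow it, so the count below is read against the larger background. With *Alb* alone as the denominator, 6 members lay above and 5 below. The 14 were *Fga*, *Fgb*, *Fgg*, *Vtn*, *Ahsg*, *Ambp*, *Serpina3k*, *Serpina1a*, *Serpina1c*, *Serpina1d*, *Serpina1e*, *Mup3*, *Mup20* and *Mup21*. In CPM, 6 lay above (background 2.19%) and 2 below (background 1.91%).

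In samples of the first naming scheme alone, *Serpina1e* (-4.32, adjusted p = 0.0157), *Mup21* (-2.76, adjusted p = 0.0237), *Bhmt* (3.02, adjusted p = 0.0146), *Cyp2b9*, *Hp* (1.71, adjusted p = 0.0401), *Hpx* (1.39, adjusted p = 0.0463) and *Cyp3a11* (3.19, adjusted p = 0.0146) stayed called at 24 weeks as they stood (background 1.78%). With the covariate *Mup3* (-1.79, adjusted p = 0.000856), *Mup21* (-3.60, adjusted p = 0.00116), *Serpina1e* (-5.04, adjusted p = 0.00588), *Mup20* (-1.32, adjusted p = 0.0368), *Bhmt* (1.33, adjusted p = 0.0389), *Cyp2b9* and *Serpina1c* (-1.07) stayed called (background 1.32%). *Serpina3k* gave -0.89 there and fell short of the fold limit.

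At 12 weeks the same question was asked of 5 WD and 7 SD samples of ResKCs. As they stood, 41 of 45 members had a higher mean with WD (median log2 fold change 0.55 against 0.02 over all genes tested), but 0 were called by edgeR's quasi-likelihood test (background 0%), DESeq2 or limma-voom, and 6 had an unadjusted p under 0.05. With the covariate 1 was called (background 0.0224%), and DESeq2 called 5 and limma-voom 0.

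The 1 member called was *Bhmt*. Per 100 reference counts the SD samples held 1.13, 1.82, 0.487, 1.41, 2.37, 1.25 and, in replicate 7, 8.79 counts, and the WD samples 10.3, 7.07, 8.97, 9.28 and 9.87. Without replicate 7 the groups do not overlap, and with it they do. The covariate fit gave 1.73 ± 0.28 (adjusted p = 0.0106), which became 2.37 (adjusted p = 3.19e-06) without SD replicate 7 and 1.55 (adjusted p = 0.135) without WD replicate 5. As it stood *Bhmt* had an adjusted p of 0.556 by edgeR's quasi-likelihood test.

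The 4 MUP members with few words of their own had higher ratios in the WD samples at 12 weeks, without passing the test over all samples. *Mup17* held 0.174, 0.543, 0.487, 0.961, 2.13, 2.83 and 9.02 counts per 100 reference counts in the SD samples, the last in replicate 7, and 11.6, 4.88, 22.8, 43.9 and 21.4 in the WD samples. *Mup9* held 0.527 to 4.91 in WD and 0.0289 to 0.0893 in SD replicates 1 to 6, with 0.378 in replicate 7. *Mup16* (0.628 to 2.36 in WD, up to 0.373 in SD) and *Mup18* (0.694 to 3.50 in WD, up to 0.529 in SD) had the same layout. For *Mup9*, *Mup16* and *Mup18* every WD sample lay above every SD sample (background 0.104%), and 0 members lay below (background 0.0224%). Most words of these symbols occur in other MUP symbols too, so they may share reads and do not count as independent members.

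With the covariate the 4 gave 4.03 ± 0.83 for *Mup9* (adjusted p = 0.0558), 3.18 ± 0.66 for *Mup18* (adjusted p = 0.0558), 3.06 ± 0.70 for *Mup17* (adjusted p = 0.0799) and 2.96 ± 0.76 for *Mup16* (adjusted p = 0.147). Without SD replicate 7, 6 members were called as they stood (background 0.492%): *Mup9* (6.08, adjusted p = 0.00153), *Mup16* (4.90, adjusted p = 0.00678), *Mup17* (5.02, adjusted p = 0.00588), *Mup18* (5.15, adjusted p = 0.00148), *Bhmt* (3.52, adjusted p = 0.00148) and *Cyp2e1* (adjusted p = 0.0313). With the covariate 4 were then called (background 0.134%), which were *Bhmt*, *Mup9* (5.22, adjusted p = 0.0239), *Mup17* (3.66, adjusted p = 0.0488) and *Mup18* (4.03, adjusted p = 0.0245). The MUP symbols in both counts are near copies that may share reads, so these calls are not independent. In the first naming scheme alone those called as they stood were *Bhmt* (4.52, adjusted p = 0.0479), *Mup9* (6.70, adjusted p = 0.0287) and *Mup17* (7.50, adjusted p = 0.0385). There *Bhmt* was also called with the covariate (2.49, adjusted p = 0.0436). The share of all genes called in these fits of the first scheme is not given. These calls therefore describe single genes, not whether members passed more often than other genes.

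*Mup3* held 44.5 to 75.8 counts per 100 reference counts in SD and 44.8 to 68.5 in WD at 12 weeks, and *Mup21* 1.08 to 3.01 and 0.92 to 2.43, both overlapping. The sum over MUP symbols gave 0.81 (adjusted p = 0.652) as it stood and 0.28 (adjusted p = 0.805) with the covariate. In shares of all MUP counts, *Mup17* had a median of 0.733% (0.241% to 10.9%) in SD and 18.0% (4.49% to 23.7%) in WD. *Serpina1e* held 4.10 to 22.3 counts per 100 reference counts in WD and 3.70 to 20.7 in SD, which overlap, and *Cyp2b9* had 0 counts in 5 of 5 WD samples and 2 counts in the SD group, both in replicate 7.

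SD replicate 7 at 12 weeks differed from its group in more than amount. Per 100 reference counts it had the highest values of its group for, among others, *Bhmt*, *Cyp2e1* (27.7), *Cyp3a11* (27.3), *Cyp2c29* (12.5), *Hpd* (8.51), *Mup9*, *Mup16*, *Mup17* and *Mup18*. It had the lowest for *Alb* (83.6), *Serpina1e* (3.70), *Mup3* (44.5), *Mup20* (10.9), *Mup21* (1.08), *Fga* (20.5), *Fgb* (17.4), *Fgg* (13.1) and further members.

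**Figure D5:**
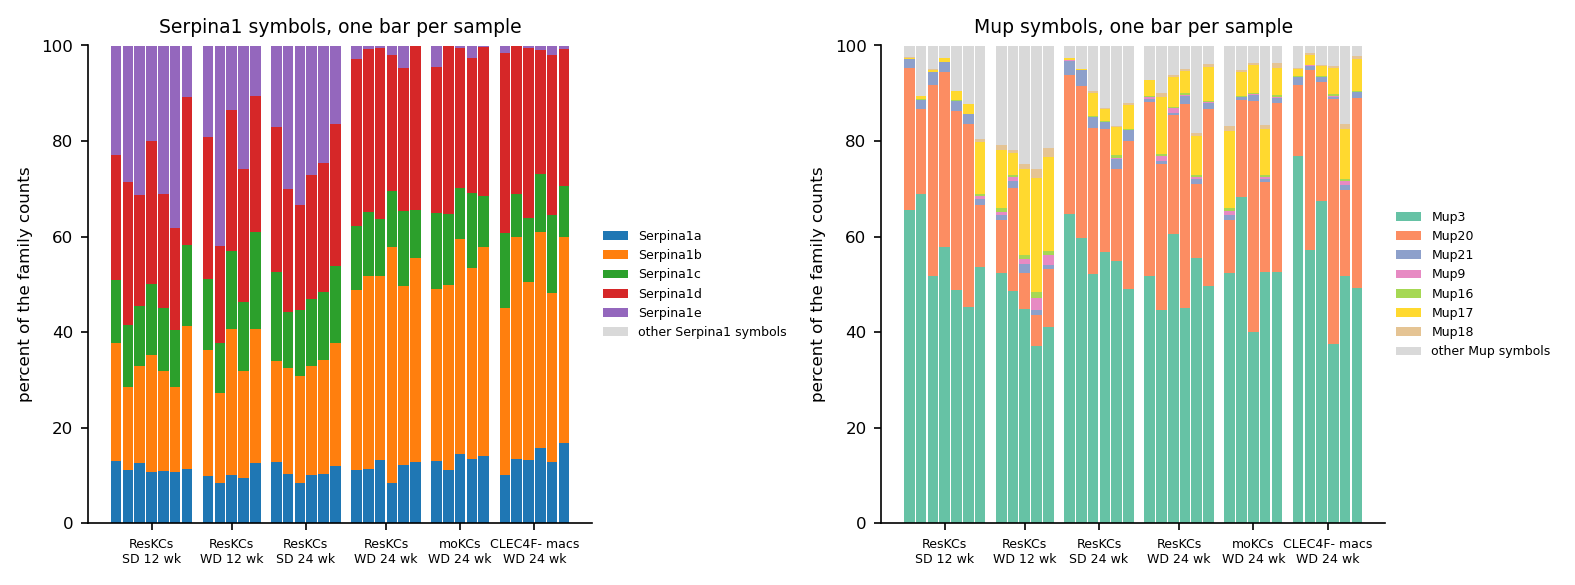
Share of each symbol in the summed counts of the MUP family and of the *Serpina1* family (percent), by sample and group. At 24 weeks *Serpina1e* has a median share of 25.8% with SD and 1.36% with WD, and *Serpina1b* 22.6% and 39.5%.

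The difference between the diet effects at 24 and at 12 weeks was tested in the same fits. As they stood 1 member was called, *Serpina1e* (-4.41 ± 0.96, adjusted p = 0.032, background 0.0596%), and it kept the call in 12 of 24 fits without 1 sample, with adjusted p up to 0.0693 in the others. With the covariate 7 were called and all were lower at 24 weeks (background 0.164%). These were *Mup21* (-2.89, adjusted p = 0.00434), *Mup3* (-1.93, adjusted p = 0.00785), *Serpina1e* (-4.45, adjusted p = 0.0135), *Mup17* (-4.68, adjusted p = 0.0256), *Serpina3k* (-1.47, adjusted p = 0.0261), *Mup16* (-5.03, adjusted p = 0.0273) and *Mup18* (-4.39, adjusted p = 0.0273). As *Mup16*, *Mup17* and *Mup18* are near copies that may share reads, the 7 calls are not independent.

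In *Mup3*, *Mup21*, *Serpina1e* and *Serpina3k* the difference came with lower ratios in the WD samples at 24 weeks, whereas in *Mup16*, *Mup17* and *Mup18* the WD samples at 12 weeks held the highest ratios. *Mup16* lost its call without SD replicate 1 or WD replicate 4 at 12 weeks, or without SD replicate 5 or WD replicate 6 at 24 weeks (adjusted p 0.0504 to 0.0723), and *Mup18* without SD replicate 1 or WD replicate 4 at 12 weeks or WD replicate 6 at 24 weeks (adjusted p 0.0504 to 0.0544). The summed MUP row gave -2.14 ± 0.37 (adjusted p = 0.00648) and the summed *Serpina1* row -0.90 ± 0.20 (adjusted p = 0.0315) with the covariate.

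Within the diets, time was compared as well. In SD ResKCs at 24 against 12 weeks 0 members were called in either fit (background 0%) by edgeR's quasi-likelihood test, DESeq2 or limma-voom, and 1 had an unadjusted p under 0.05 in each fit. In WD ResKCs 4 were called as they stood (background 0.693%), which were *Serpina1e* (-4.36, adjusted p = 0.00341), *Mup21* (-2.55, adjusted p = 0.00742), *Mup16* (-3.53, adjusted p = 0.0408, kept in 3 of 11 fits without 1 sample) and *Cyp2b9*, which had 0 counts in every WD sample at 12 weeks and passed the filter through the later samples. With the covariate 10 were called (background 0.879%). Beside *Cyp2b9* these were 6 MUP genes (*Mup3* with -1.60, *Mup21* with -2.38, and *Mup9*, *Mup16*, *Mup17* and *Mup18* with -3.31 to -3.66), *Serpina1e* (-4.38, adjusted p = 0.000557), *Serpina3k* (-1.33, adjusted p = 0.00129) and *F5* (1.21, adjusted p = 0.0454), of which *F5* kept its call in 2 of 11 fits without 1 sample and *Mup9* lost it without WD replicate 4 at 12 weeks (-2.71, adjusted p = 0.0667). Calls of *Mup9*, *Mup16*, *Mup17* and *Mup18* are again not independent.

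The 3 macrophage populations from livers fed WD for 24 weeks were compared to ask whether the hepatocyte transcripts differed by the cell sorted. Between ResKCs and moKCs 0 members were called in either fit (background 1.39% and, with the covariate, 1.48%) by edgeR's quasi-likelihood test, DESeq2 or limma-voom, with 0 and 5 at an unadjusted p under 0.05. Between ResKCs and CLEC4F- macs 0 were called in either fit (background 10.4% and 10.8%), where limma-voom called 1 and 0 and DESeq2 0 and 0, with 2 and 14 at an unadjusted p under 0.05. These tests share the ResKC samples. Per 100 reference counts, *Serpina3k* held 18.34, 27.35 and 10.43 in ResKC replicates 4 to 6. The same gene held 20.59, 31.22 and 11.3 in moKC replicates 3 to 5 and 20.03, 29.08 and 10.88 in CLEC4F- replicates 4 to 6. The populations may share livers, which was not tested and which the tests do not take into account, so they are not independent observations. *Serpina1e* was low in all 3 populations, at 1.45, 0.0323, 0.114, 0.798 and 0.0474 counts per 100 reference counts in moKCs and at 0.383, 0, 0.101, 0.182, 0.606 and 0.138 in CLEC4F- macs. *Cyp2b9* was present in each library of them, with 21, 100, 50, 13 and 76 counts in moKCs and 4, 35, 148, 40, 10 and 53 in CLEC4F- macs.

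*Mup3* had a median of 18.1 counts per 100 reference counts in moKCs and 19.8 in CLEC4F- macs, and *Bhmt* 6.45 and 7.81, and their ranges overlap those of WD ResKCs. Below the fold limit, 12 members had an adjusted p under 0.05 between ResKCs and CLEC4F- macs with the covariate, where 33.6% of all genes did. The members thus passed less often than genes in general, and the values that follow only describe single genes. *Apoa2* (-0.57, adjusted p = 7.72e-05), *Tdo2*, which opens the tryptophan ring (-0.65, adjusted p = 0.000113), and *Fabp1* (-0.72, adjusted p = 0.000634) were lower in ResKCs, and *Hpx* (0.40), *Trf* (0.38) and *Vtn* (0.36) higher. Between moKCs and CLEC4F- macs 0 members were called as they stood (background 5.05%) by edgeR's quasi-likelihood test, DESeq2 or limma-voom, with 2 at an unadjusted p under 0.05.

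With the covariate, *Ass1*, argininosuccinate synthase of the urea cycle, was lower in moKCs than in CLEC4F- macs (-1.03 ± 0.32, adjusted p = 0.0244, 1 of 45 members against a background of 5.15%). The moKCs held 1.06 to 2.44 counts per 100 reference counts, and the CLEC4F- macs 8.32 in replicate 1 and 1.95 to 3.50 in the other 5. The call was lost without CLEC4F- replicate 1 (-0.67, adjusted p = 0.107), moKC replicate 1 (-0.89, adjusted p = 0.0752) or moKC replicate 3 (-0.99, adjusted p = 0.0551).

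Other hepatocyte gene lists were read beside the members at 24 weeks in ResKCs, where 2.38% of all genes tested rose as they stood and 1.42% fell with the covariate. Of 12 pericentral genes 3 rose as they stood (median 1.62), with *Cyp2a5* (2.83, adjusted p = 0.0156) and *Gulo* (2.24, adjusted p = 0.0378) beside *Cyp2e1*, and the median of 9 periportal genes was 0.84. Of 11 acute-phase genes tested 4 rose (median 1.43), led by the serum amyloids *Saa1* (4.49, adjusted p = 0.0105) and *Saa2* (3.81, adjusted p = 0.0262). Among targets of the fatty acid sensor PPAR-alpha, *Apoa4* (3.91, adjusted p = 0.000276) and *Ehhadh*, an enzyme of peroxisomal fatty acid oxidation (1.35, adjusted p = 0.016), rose.

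With the covariate, *Apoa4* (2.95, adjusted p = 0.000513) was the 1 called gene of those lists that stayed higher, and *Hamp*, hepcidin, the hormone that lowers iron export, fell (-2.52, adjusted p = 0.000318). Of 7 male-biased hepatocyte genes 0 lay above 0 in that fit, with a median of -1.21 against 0.00 as they stood. Of 11 female-biased genes 1 passed the filter, and it was *Cyp2b9*. Of the 23 reference genes 1 was called as it stood (*Mat1a*, 2.25, adjusted p = 0.0199, median of the list 0.91) and 1 with the covariate (*C8b*, -1.73, adjusted p = 0.0354). Of 9 sinusoidal endothelial markers, which summed to 1165 to 2116 CPM in SD and 853 to 1303 CPM in WD at 24 weeks, 5 fell with the covariate, and their part in the member results was not tested.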

How the data were processed

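The authors aligned single reads of 75 bases to the mouse genome and deposited whole-number counts per gene symbol, 1 file per sample. The submitters' processing notes name FastQC 0.11.9, HISAT2 2.2.0, SAMtools 1.10, featureCounts 2.0.0 and the mm10 build. The annotation, strand setting and treatment of reads that match several genes are not given in the sources used here. Depth is limited by totals of 11568590 to 15163845 counts.

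The deposited counts were fitted with edgeR 4.0.16 (quasi-likelihood test, TMM factors, R 4.3.3) over 35 samples and 6 group means, after keeping genes over 1 CPM in at least 5 samples. Calls needed an absolute log2 fold change over 1 and a Benjamini-Hochberg adjusted p under 0.05 over 13421 genes. Log2 CPM used a prior count of 2. The same fit was repeated with the log2 CPM of 23 summed reference genes as a covariate. The fits recovered changed genes in counts simulated from the covariate fit itself. That check does not cover reads split among copies, shared animals or a reference that differs with diet. Alternatives were limma-voom (limma 3.58.1), DESeq2 1.42.0, other call limits, filters, scalings, reference levels, sample sets and each sample left out. Sequence uniqueness was the share of 75-base words of a transcript found in no other symbol.

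The members, the gene lists (reference, periportal, pericentral, acute-phase, male-biased, female-biased, PPAR-alpha, macrophage, Kupffer, endothelial, cholangiocyte) and the tests were chosen with earlier results of these data known. Described with values were *Alb*, the 2 members highest per kilobase in each role, members called in a diet comparison, all MUP and *Serpina1* members and those with r under 0.5 to the reference, while the others appear in counts, save a few chosen after their values were seen (*Hp*, *Hpx* and the fibrinogens by the adjusted p alone, *Ahsg*, *Ass1*, *Tdo2*, *Vtn*). The count and median of the PPAR-alpha list are not reported here.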

Additional observations from a re-analysis of the deposited data

Results flagged for a closer look

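Of 282 gaps between the most extreme sample and its nearest neighbour within a group, 4 exceeded Dixon's 95% critical value, where chance gives about 1 in 20, or 14.1. In SD ResKCs at 12 weeks, replicate 7 stood apart for *Mup9* (2.35 log2 CPM), *Mup18* (2.83 log2 CPM) and *Cyp2b9* (-1.79 log2 CPM, from 2 counts against 0 in the other 6 samples). In moKCs, replicate 2 stood apart for *Bhmt* (6.66 log2 CPM). Neither the summed members nor the reference level was flagged in any group.

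The diet effect at 24 weeks minus that at 12 weeks passed the test for *Serpina1e* as it stood (-4.41 on the log2 scale). With the reference covariate it passed for *Serpina1e* (-4.45), *Serpina3k* (-1.47), *Mup3* (-1.93), *Mup16* (-5.03), *Mup17* (-4.68), *Mup18* (-4.39), *Mup21* (-2.89) and the summed MUP symbols (-2.14). The values of *Mup16*, *Mup17* and *Mup18* may be split among copies.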

How the results depend on the processing

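Of the counts and summed values recomputed under alternatives, 331 stayed close to the main value and 73 moved, and of the values of single called members 922 kept their call, 135 lost it and 0 reversed. The 922 include the setting without a fold limit, which keeps every call by construction. The 331 include counts of 0 that stayed 0. Neither total therefore measures how firm the calls are. For WD against SD ResKCs at 24 weeks, the 9 calls became 4 under stricter limits (absolute log2 fold change over 1.5, adjusted p under 0.01) and ran from 6 to 10 with 1 sample left out, and with the covariate the 9 became 18 without a fold limit, 4 under stricter limits and 7 to 9 with 1 sample left out. At 12 weeks the count of 0 became 6 with the replicate number as a block, 3 in the first naming scheme and 0 to 6 with 1 sample left out, and with the covariate the count of 1 became 0 under stricter limits, with limma-voom or with the compared groups alone, 2 with the block or the naming scheme as a covariate, 3 without a filter, 4 with *Alb* as the covariate, 5 with DESeq2 and 0 to 4 with 1 sample left out. For the difference of diet effects the count of 1 became 0 under stricter limits, without a filter, with limma-voom, with the block or in the first scheme, 2 with the naming scheme as a covariate, 3 with DESeq2 and 0 to 5 with 1 sample left out, and with the covariate the 7 became 2 under stricter limits, 3 in the first scheme and 5 to 8 with 1 sample left out. For WD ResKCs at 24 against 12 weeks the 4 became 1 in the first scheme (3 to 4 with 1 sample left out), and with the covariate the 10 became 5 (8 to 11 with 1 left out). Between ResKCs and CLEC4F- macs the 0 became 1 without a fold limit, with limma-voom, with the block, with the compared groups alone or in the first scheme (0 to 1 with 1 left out), and with the covariate 12 without a fold limit, 1 with *Alb* as the covariate, 2 in the first scheme and 0 to 1 with 1 left out. Between moKCs and CLEC4F- macs the 0 became 1 without a fold limit and 2 in the first scheme (0 to 1 with 1 left out), and with the covariate the 1 became 3 without a fold limit, 0 under stricter limits, with limma-voom, with the compared groups alone or with a mean of log values as the covariate, 2 in the first scheme and 0 to 1 with 1 left out. The median over single MUP symbols at 12 weeks was 2.74, or 2.96 with the covariate, against 0.81 and 0.28 for their sum. With *Alb* as the denominator, 6 members lay above and 5 below at 24 weeks, against 3 and 14. In no comparison did every pair of same-numbered samples correlate over 0.1 in their deviations (nearest were WD ResKCs and CLEC4F- macs, with 4 of 6 pairs over it, the lowest at 0.0242 and the median at 0.113), and the labels do not tie a number to an animal, so whether the numbers pair samples is not known and the block is given here alone. Samples of 1 liver that carry unequal numbers would be missed by this check and by the block. The first naming scheme was added as an alternative after seeing the data. Where a count changed, the cause was not tested. The share of all genes called can change with each alternative as well and is not given beside these counts. They describe how the calls moved, not whether members passed more often than other genes. Few counts of *Mup9*, *Mup16*, *Mup18* and *Cyp2b9* limit their precision.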
